A study of Homo sapiens with 12 samples.

Results

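Terminal differentiation genes of squamous epithelium were examined in the established oesophageal squamous cell carcinoma line KYSE150 after depletion of anillin. The genes were IVL, SPRR1A, SPRR1B, TGM1, KLK5, KLK10, S100A8, S100A9, AQP3 and MAB21L4, 10 genes taken by symbol. All 10 were among the 58735 gene IDs in the 24 h tables, and 9, all but TGM1, among the 38318 in the 48 h tables. The libraries came from cells given siANLN, a small interfering RNA (siRNA) that targets ANLN, for 24 h or 48 h and from cells given the control siRNA siNC for the same times, with 3 libraries in each of the 4 groups and 12 in all. The product of ANLN, anillin, binds actin and organises the ring that pinches dividing cells apart, and the series asks about its part in transcription by RNA polymerase II. All groups were of the same cell line, with the genotype labelled WT. The labels name 1 siRNA for each arm, so each comparison is between those siRNAs. The libraries of a group are called biological replicates, and the labels do not say whether they came from separate transfections, so the p-values measure the spread between these libraries.

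Squamous epithelia renew from basal cells that stop dividing, move outward and build a cross-linked protein envelope before they are shed. Involucrin and the small proline-rich proteins are precursors of that envelope, and transglutaminases cross-link them. Secreted kallikrein-related peptidases cut the junctions that hold the outer cells together. The calcium-binding proteins S100A8 and S100A9 and the water and glycerol channel aquaporin-3 are further products of squamous epithelia. MAB21L4 has been reported to promote differentiation of human epidermal keratinocytes. In squamous carcinomas this programme is often incomplete.

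Depth and the targeted gene were checked first. Total gene counts ran from 14891932 to 16575754 in siANLN and from 15520365 to 17921808 in siNC at 24 h, and from 11939862 to 12448411 in siANLN and from 11805488 to 12113679 in siNC at 48 h. ANLN stood at 104 ± 6.12 CPM in siANLN against 892 ± 17.0 CPM in siNC at 24 h, and at 80.8 ± 5.37 CPM in siANLN against 731 ± 8.09 CPM in siNC at 48 h (mean ± SD, n = 3 each). CPM are counts relative to the library total, adjusted by TMM factors. The siANLN level was thus 11.6% of siNC at 24 h and 11.1% at 48 h. The tables of the 2 times were made separately, so levels are compared within a time and not between times, and time cannot be told apart from the making of the tables.

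Of the 10 genes, 5 lay within 483 kb on chromosome 1, from IVL at 152908545 to the end of S100A8 at 153391188, and 2 lay among the kallikrein genes of chromosome 19, in GENCODE release 29 on GRCh38. The upstream bases of 4 genes that changed at 48 h, described below, were read from RefSeq on GRCh38.p14 and are shown 5′ to 3′ on the gene's strand. Each starts 250 bases before the RefSeq start and ends at that start or where the first GENCODE exon begins. Capitals mark matches, on either strand, to the AP-1 motif TGANTCA, the TATA box TATAAA or the RBPJ motif TGGGAA, and none of these matches overlapped another.
MAB21L4, chr2:240896157-240896406, minus strand: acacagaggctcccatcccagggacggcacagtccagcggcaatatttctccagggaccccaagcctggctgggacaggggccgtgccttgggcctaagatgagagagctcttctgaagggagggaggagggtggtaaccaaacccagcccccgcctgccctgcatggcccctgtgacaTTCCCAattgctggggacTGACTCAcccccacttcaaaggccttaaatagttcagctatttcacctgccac
AQP3, chr9:33447634-33447843, minus strand: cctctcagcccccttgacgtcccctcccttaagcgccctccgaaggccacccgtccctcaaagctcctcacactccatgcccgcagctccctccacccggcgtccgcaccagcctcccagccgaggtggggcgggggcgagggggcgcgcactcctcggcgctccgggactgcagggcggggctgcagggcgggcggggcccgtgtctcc
KLK5, chr19:50953094-50953288, minus strand: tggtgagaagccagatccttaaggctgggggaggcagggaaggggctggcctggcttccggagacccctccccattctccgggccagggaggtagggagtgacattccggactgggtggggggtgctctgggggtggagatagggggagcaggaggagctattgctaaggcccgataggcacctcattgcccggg
S100A9, chr1:153357604-153357853, plus strand: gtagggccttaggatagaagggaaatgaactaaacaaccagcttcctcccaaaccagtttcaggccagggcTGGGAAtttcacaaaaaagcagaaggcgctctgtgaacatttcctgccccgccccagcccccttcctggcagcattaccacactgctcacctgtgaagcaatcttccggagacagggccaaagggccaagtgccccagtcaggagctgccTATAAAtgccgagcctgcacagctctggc

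The MAB21L4 bases shown belong to the more upstream of its RefSeq starts. They lie inside the gene as GENCODE draws it, since its GENCODE start is 733 bases farther upstream, but in no exon. The other MAB21L4 start had an RBPJ match beginning 88 bases before it and no AP-1 match. AQP3 also had TATAAA beginning 32 bases before its RefSeq start, within a GENCODE exon and so not shown. KLK10 had RBPJ matches beginning 198 and 115 bases before the more upstream of its RefSeq starts. Of the 250 bases before that start, 209 are exonic in GENCODE, so they are not shown. The window of the other KLK10 start held none of the motifs. The envelope genes IVL, SPRR1A and SPRR1B shared an AP-1 match at a like distance, and these 30-base windows are shown because AP-1 sites are a known feature of involucrin and small proline-rich gene promoters. Capitals mark the AP-1 match.
IVL, 123 bases before the start, chr1:152908411-152908440, plus strand: agatgcctgtggTGAGTCAggaaggggtta
SPRR1A, 108 bases before the start, chr1:152983961-152983990, plus strand: aggatggtagtgTGAGTCAtgtgtgacagg
SPRR1B, 141 bases before the start, chr1:153031050-153031079, plus strand: catcacaaaagtTGAGTCAacaggtgggtg
SPRR1B, 111 bases before the start, chr1:153031080-153031109, plus strand: agggaagaggggTGAATCAcatctgacagg

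Over all 35116 RefSeq windows of 300 bases (250 before the start and 50 after), 7.71% held the AP-1 motif, 11.5% the TATA box and 24.0% the RBPJ motif. Windows were found for 9 of the 10 genes, all but TGM1. These genes had 13 windows, since some have several starts, and of the 13 windows 4 held an AP-1 match, 6 a TATA box and 7 an RBPJ match. Counted by gene, with any window, 4 of the 9 had an AP-1 match (IVL, SPRR1A, SPRR1B and MAB21L4), 5 a TATA box and 6 an RBPJ match, which the shares per window do not match in unit. KLK5 had none of the motifs. A match is a string of letters and does not show that a factor binds there.

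Per length, KLK5 was by far the most abundant of these transcripts. In the FPKM values deposited by the authors, KLK5 averaged 53.3 ± 1.45 in siANLN and 70.8 ± 3.56 in siNC at 48 h (mean ± SD, n = 3 each). In siNC at 48 h it was followed by KLK10 at 5.86 ± 0.219 FPKM, MAB21L4 at 3.41 ± 0.228, AQP3 at 3.12 ± 0.648, S100A9 at 2.97 ± 0.202 and SPRR1B at 2.84 ± 0.724. Among the last 4 of these, neighbours in the order overlapped within 1 SD. SPRR1A at 0.339 ± 0.197 FPKM, S100A8 at 0.188 ± 0.002 and IVL at 0.026 ± 0.044 came last, and of these S100A8 and IVL did not overlap within 1 SD.

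In siANLN at 48 h the order was different. S100A9 stood in the second place at 6.45 ± 0.651 FPKM, above KLK10 at 2.67 ± 0.454 and SPRR1B at 2.24 ± 0.313, which did not differ beyond 1 SD. AQP3 at 0.825 ± 0.257 FPKM and MAB21L4 at 0.747 ± 0.276 also did not differ from each other beyond 1 SD. At 24 h the siANLN and siNC means were 45.8 ± 2.32 and 46.6 ± 2.02 FPKM for KLK5. The siNC means at 24 h were 2.58 ± 0.597 FPKM for SPRR1B, 2.10 ± 0.101 for KLK10, 1.71 ± 0.249 for MAB21L4, 1.49 ± 0.407 for S100A9, 1.46 ± 0.144 for TGM1, 1.23 ± 0.956 for SPRR1A and 0.876 ± 0.214 for AQP3. Of these 7, neighbours overlapped within 1 SD except KLK10 and MAB21L4. S100A8 at 0.040 ± 0.035 FPKM and IVL at 0.036 ± 0.063 came last.

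In all, 3 genes were too low to test at either time, and none of their libraries exceeded 11 reads. IVL, which encodes involucrin, had 0, 2 and 0 reads in siANLN and 4, 0 and 0 reads in siNC at 24 h, and 1, 1 and 1 reads in siANLN and 0, 2 and 0 reads in siNC at 48 h. S100A8, which encodes the partner of S100A9 in the heterodimer calprotectin, had 0, 2 and 0 reads in siANLN and 0, 1 and 1 reads in siNC at 24 h, and 3, 1 and 1 reads in siANLN and 2, 2 and 2 reads in siNC at 48 h. These genes were at the edge of detection in both groups, so a difference was not detectable at this depth. SPRR1A, an envelope precursor, had 7, 6 and 3 reads in siANLN and 2, 11 and 4 reads in siNC at 24 h, and 5, 2 and 4 reads in siANLN and 3, 1 and 4 reads in siNC at 48 h. Its groups overlapped at both times. TGM1 was not analysed here at 48 h.

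At 24 h, none of the 7 tested genes passed the test, TGM1, SPRR1B, KLK5, KLK10, S100A9, AQP3 and MAB21L4. By edgeR's quasi-likelihood test with Benjamini-Hochberg adjustment over all genes, 0 of 7 passed an adjusted p of 0.05, while 10.8% of all 14698 genes tested did, 5.93% higher and 4.86% lower. DESeq2 (which gave an adjusted p for 3 of the 7) and limma on log2 FPKM also called 0. At an unadjusted p under 0.05 there was 1 of the 7, MAB21L4, against 21.9% of all genes (3222 of 14698). The median log2 change (siANLN over siNC) was -0.02 for the 7 genes and -0.01 for all genes.

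At 48 h, 4 genes fell and 1 rose among the 6 tested. Here and below, fell and rose mean lower and higher in siANLN than in siNC at the same time, not a change over time. MAB21L4, AQP3, KLK10 and KLK5 were lower in siANLN, S100A9 was higher, and SPRR1B did not pass the test. Of all 16994 genes tested, 43.6% passed, 22.2% higher and 21.3% lower, so a call alone sets no gene apart at this time. The siANLN and siNC libraries did not overlap for 5 of the 6 genes and for 49.7% of all genes. The median log2 change was -0.73 for the 6 genes and 0.00 for all genes, and the median size of change among all called genes was 0.30. Of the 16994 genes, 13 had a lower log2 change than MAB21L4, 28 than AQP3, 232 than KLK10 and 2175 than KLK5, and 69 had a higher one than S100A9. In bulk RNA, fewer cells of a type and less RNA per cell cannot be told apart.

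**Figure D1:**
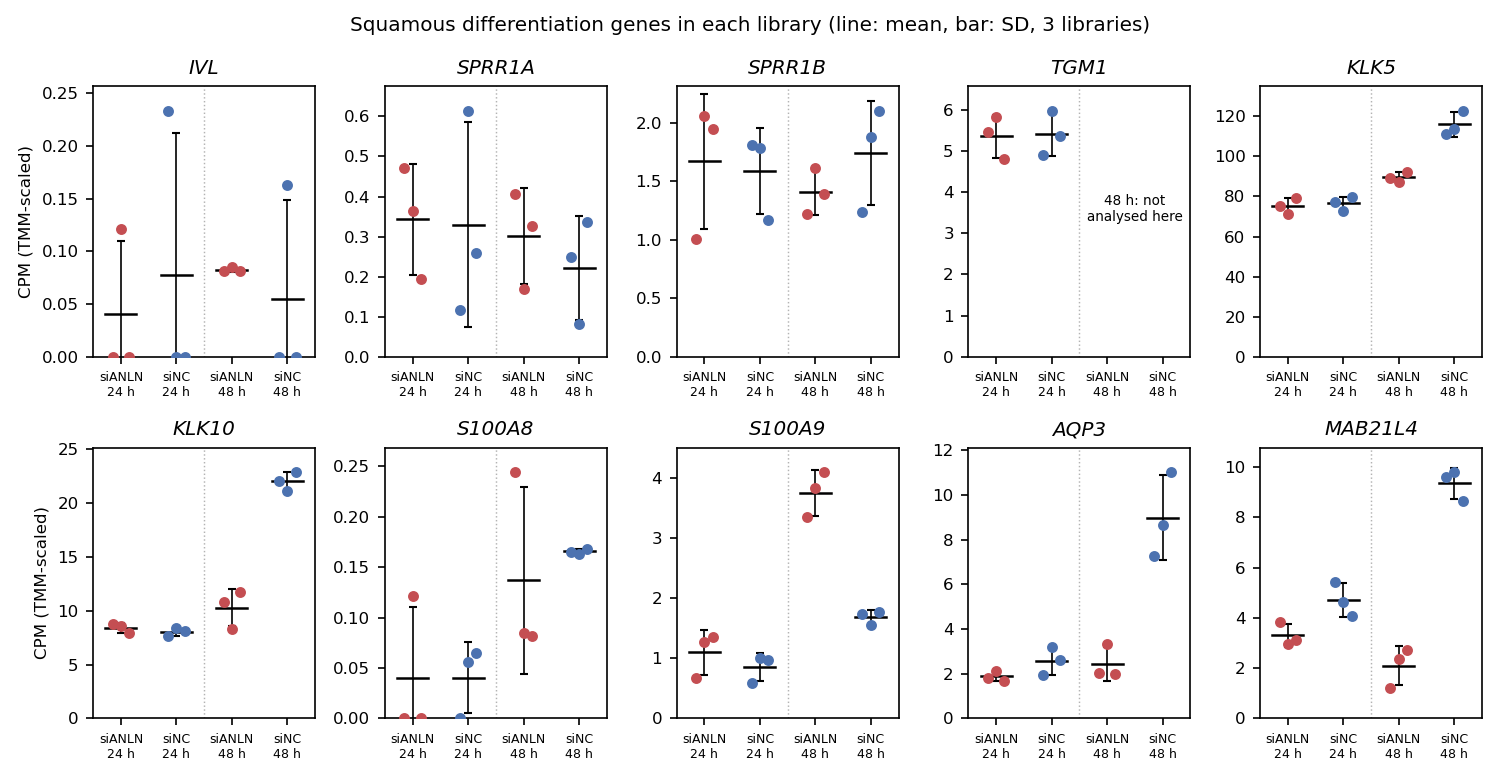
Level of each gene in every library, in CPM with TMM factors (vertical axes start at 0 and differ between panels), siANLN in red and siNC in blue, with the mean as a line and the SD as a bar (n = 3). At 48 h the groups do not overlap for MAB21L4, AQP3, KLK10, KLK5 and S100A9, and IVL, S100A8 and SPRR1A stay under 1 CPM in all 12 libraries.

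Among the envelope genes, neither of the tested ones, SPRR1B and TGM1, passed the test. SPRR1B, a small proline-rich envelope precursor (ENSG00000169469, chromosome 1, 153031202 to 153032900), had 1.01, 2.06 and 1.94 CPM in siANLN against 1.81, 1.79 and 1.16 CPM in siNC at 24 h. At 48 h it had 1.22, 1.61 and 1.39 CPM in siANLN against 1.24, 1.88 and 2.10 CPM in siNC. The groups overlapped at both times. Its log2 change was 0.07 at 24 h (95% interval -0.56 to 0.71, edgeR adjusted p = 0.93) and -0.30 at 48 h (-0.89 to 0.28, adjusted p = 0.43). With 15 to 34 reads per library these intervals leave room for a change of moderate size either way. The SPRR1A transcript matches SPRR1B at 260 of 270 aligned bases (96.3%), so reads may be split between this pair and both counts are uncertain. The gene length implied by the deposited counts and FPKM was also 268 bases at 24 h and 662 bases at 48 h for SPRR1A.

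TGM1 encodes the membrane-bound transglutaminase that cross-links envelope proteins (ENSG00000092295, chromosome 14, 24249114 to 24264432, minus strand). It had 5.45, 5.82 and 4.79 CPM in siANLN against 4.91, 5.98 and 5.37 CPM in siNC at 24 h. The groups overlapped, with a log2 change of -0.02 (95% interval -0.35 to 0.32, edgeR adjusted p = 0.97).

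The kallikreins fell at 48 h, KLK10 by more than KLK5. KLK5, a secreted trypsin-like protease that cuts junction proteins and activates other kallikreins (ENSG00000167754, chromosome 19, 50943303 to 50953093, minus strand), had 89.4, 87.0 and 92.0 CPM in siANLN against 111, 114 and 123 CPM in siNC at 48 h. Every siANLN library lay below every siNC library. Its log2 change was -0.37 (SE 0.04, edgeR adjusted p = 9.4e-17), which left 77.3% of the siNC level. At 24 h it had 75.4, 71.4 and 79.0 CPM in siANLN against 77.1, 73.0 and 79.6 CPM in siNC, with a log2 change of -0.02 (95% interval -0.13 to 0.08, adjusted p = 0.86).

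KLK10 encodes another secreted kallikrein (ENSG00000129451, chromosome 19, 51012739 to 51020175, minus strand). At 48 h it had 10.8, 8.33 and 11.7 CPM in siANLN against 22.1, 21.2 and 22.9 CPM in siNC. The siANLN libraries were all lower, with a log2 change of -1.09 (SE 0.10, edgeR adjusted p = 2.9e-24) and 46.8% of the siNC level. At 24 h the groups overlapped, at 8.75, 8.60 and 7.90 CPM in siANLN against 7.65, 8.44 and 8.09 CPM in siNC (log2 change 0.06, 95% interval -0.21 to 0.33, adjusted p = 0.86).

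Both kallikreins overlap an antisense gene, and without a stated strand setting their reads cannot be told apart. KLK5 shares 202 of its 1653 exon bases with AC011483.2, which averaged 16.9 CPM in siANLN and 23.0 CPM in siNC at 48 h. KLK10 shares 240 of its 3853 exon bases with AC011473.2, which averaged 3.88 CPM in siANLN and 8.09 CPM in siNC. At 24 h AC011483.2 averaged 0.105 CPM in siANLN and 0.039 CPM in siNC, and AC011473.2 had no read. These antisense genes were called lower at 48 h, with log2 changes of -0.45 (edgeR adjusted p = 1.8e-06) and -1.06 (adjusted p = 5.5e-10). Since the reads cannot be told apart, these calls cannot be taken as separate from those of KLK5 and KLK10.

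The S100 pair was not measurable as a pair, since S100A8 was too low. S100A9, a calcium-binding protein of stressed and suprabasal keratinocytes that is also abundant in neutrophils (ENSG00000163220, chromosome 1, 153357854 to 153361027), had 41, 45 and 50 reads in siANLN against 21, 19 and 21 reads in siNC at 48 h. Each siANLN library was above each siNC library. The log2 change was 1.15 (SE 0.23, edgeR adjusted p = 6.0e-06), a 2.22-fold rise, on a mean of 3.75 ± 0.382 CPM in siANLN and 1.69 ± 0.116 CPM in siNC. At 24 h it had 10, 21 and 21 reads in siANLN against 10, 18 and 15 reads in siNC, with a log2 change of 0.37 (95% interval -0.41 to 1.16, adjusted p = 0.66).

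Of 8 markers of neutrophils and monocytes, PTPRC, CSF3R, MPO and ELANE had no read in any of the 6 libraries at 24 h, which allows up to 0.0308 CPM over those libraries for counting error only. At 48 h 7 were listed, MPO had no read, and PTPRC and CSF3R stayed at or under 0.0827 CPM in each library. ITGAM and CD14 were detected, at up to 0.643 and 0.788 CPM in a library at 24 h and up to 1.06 and 0.654 CPM at 48 h. ITGAM averaged 0.711 CPM in siANLN and 0.692 CPM in siNC at 48 h, and CD14 0.385 CPM in siANLN and 0.384 CPM in siNC. The summed level of the list ran from 0.712 to 1.51 CPM in siANLN and from 0.614 to 1.46 CPM in siNC at 24 h, and from 0.595 to 1.47 CPM in siANLN and from 1.09 to 1.31 CPM in siNC at 48 h. The part of these markers in the level of S100A9 was not tested.

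AQP3 encodes aquaporin-3, which passes water and glycerol (ENSG00000165272, chromosome 9, 33441154 to 33447633, minus strand). At 48 h it had 25, 39 and 24 reads in siANLN against 88, 106 and 131 reads in siNC, or 2.04, 3.31 and 1.96 CPM against 7.28, 8.66 and 11.0 CPM. All siANLN libraries were well below all siNC libraries. Its log2 change was -1.88 (SE 0.17, edgeR adjusted p = 6.4e-23), which left 27.1% of the siNC level. At 24 h it had 1.82, 2.12 and 1.68 CPM in siANLN against 1.93, 3.18 and 2.59 CPM in siNC, and the groups overlapped (log2 change -0.45, 95% interval -0.99 to 0.09, adjusted p = 0.34).

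MAB21L4 (ENSG00000172478, chromosome 2, 240886048 to 240896889, minus strand, also named C2orf54) fell the furthest of the 6 genes tested at 48 h. It had 15, 28 and 33 reads in siANLN against 116, 120 and 103 reads in siNC, or 1.22, 2.38 and 2.702 CPM against 9.59, 9.80 and 8.66 CPM. The log2 change was -2.15 (SE 0.18, edgeR adjusted p = 7.8e-28), which left 22.5% of the siNC level. At 24 h it had 3.84, 2.97 and 3.11 CPM in siANLN against 5.43, 4.64 and 4.08 CPM in siNC. Those groups did not overlap, as was so for 25.6% of all genes tested at 24 h. The 24 h log2 change of -0.52 did not pass the test (95% interval -0.92 to -0.12, adjusted p = 0.087).

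**Figure D2:**
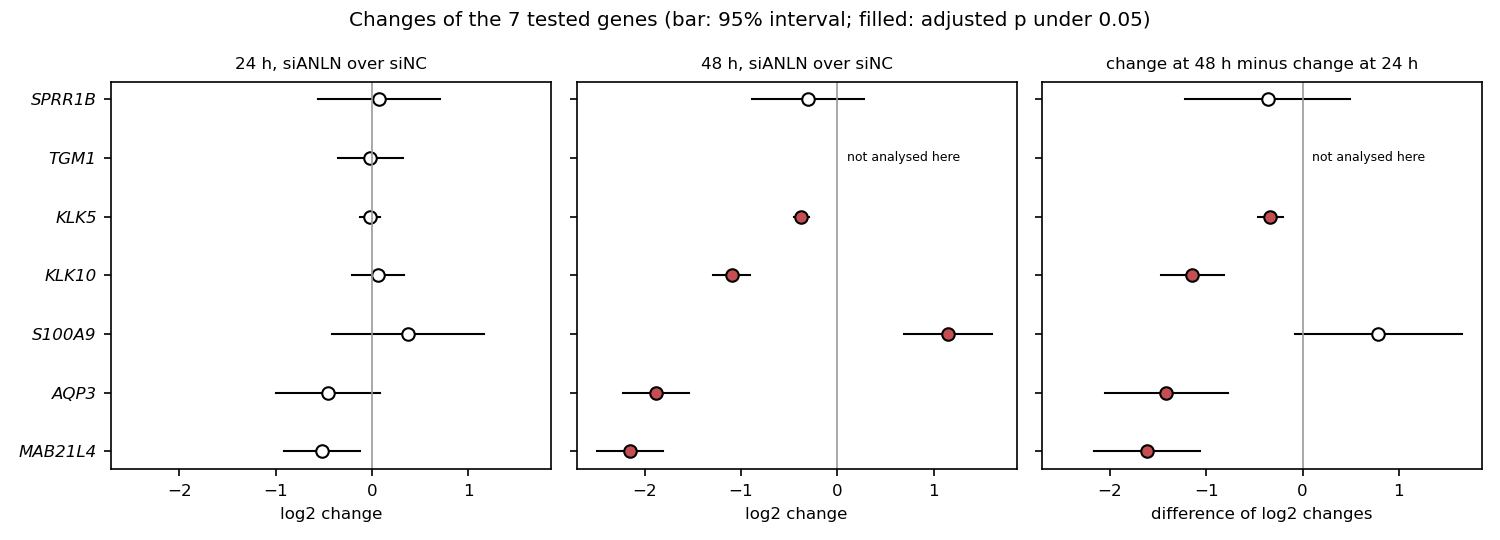
Log2 change (siANLN over siNC) of the 7 tested genes at 24 h and at 48 h, and the difference of the changes (48 h minus 24 h), with 95% intervals as bars and filled points for an edgeR adjusted p under 0.05. MAB21L4, AQP3, KLK10 and KLK5 lie below 0 in the middle and right panels, S100A9 lies above 0 in the middle panel, and no gene is filled at 24 h.

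The changes at 48 h were larger than those at 24 h for the 4 genes that fell. The difference was tested over gene IDs in both tables in 1 model of all 12 libraries, in which 13.0% of 17625 genes passed, 8.29% higher and 4.71% lower. The difference of the log2 changes was -1.62 for MAB21L4 (SE 0.28, edgeR adjusted p = 5.2e-06), -1.42 for AQP3 (SE 0.32, adjusted p = 7.0e-04), -1.14 for KLK10 (SE 0.16, adjusted p = 7.2e-08) and -0.33 for KLK5 (SE 0.07, adjusted p = 8.8e-05). For S100A9 it was 0.79 (95% interval -0.08 to 1.66, adjusted p = 0.27), so its rise at 48 h was not shown to differ from the change at 24 h. For SPRR1B it was -0.36 (-1.22 to 0.50, adjusted p = 0.70). The median difference was -0.75 for the 6 genes and 0.01 for all genes.

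**Figure D3:**
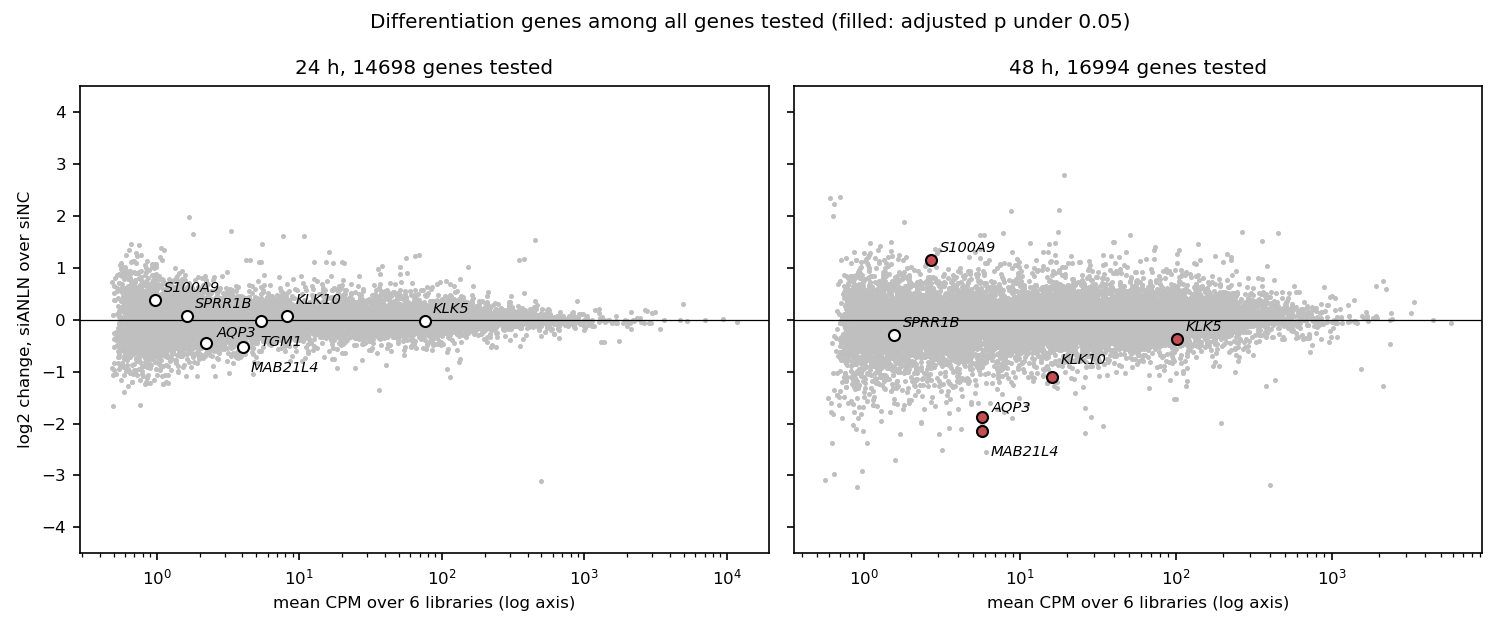
Log2 change (siANLN over siNC, vertical) against mean CPM over 6 libraries (log axis) for all 14698 genes tested at 24 h and all 16994 at 48 h (grey), with the tested differentiation genes as circles, filled where the edgeR adjusted p was under 0.05. At 48 h MAB21L4 at -2.15 and AQP3 at -1.88 lie at the lower edge of the genes of their level, and at 24 h the 7 genes lie between -0.52 and 0.37.

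Genes on either side of these were counted by interval. Of the 20 protein-coding genes between IVL and S100A8, S100A9 and SPRR1B were the 2 tested at each time. In the kallikrein interval from KLK1 to KLK14 (265 kb, chromosome 19, 50819148 to 51084245), 16 protein-coding genes were annotated. At 24 h 3 were tested and 0 called, by edgeR. At 48 h 5 were tested, KLK5 and KLK10 among them, and all 5 were called lower in siANLN, against 21.3% of all genes, with log2 changes of -1.99 for AC011473.4, -1.97 for KLK9, -1.09 for KLK10, -0.50 for KLK6 and -0.37 for KLK5. The call of KLK6 (adjusted p = 0.039) was lost with DESeq2 (adjusted p = 0.25). KLK9 shares 787 of its 840 exon bases with AC011473.4 on the same strand. At 48 h both averaged 0.941 CPM in siANLN, against 3.70 CPM for KLK9 and 3.75 CPM for AC011473.4 in siNC. Their calls therefore cannot be taken as separate, and the counts of those genes are uncertain. The 5 calls thus hold a near-duplicate besides the described KLK5 and KLK10, and do not show a fall across the interval.

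Other genes of the programme were counted by list. For each list below, the share of all genes called was 5.93% higher and 4.86% lower at 24 h. At 48 h it was 22.2% higher and 21.3% lower. Of 28 further cornified envelope genes, 7 were tested at each time. At 24 h 0 were higher and 2 lower in siANLN (median log2 change -0.05), and at 48 h 1 was higher and 1 lower (median 0.00). PPL, which encodes the envelope scaffold periplakin, stood at 188 ± 2.62 CPM in siANLN against 299 ± 2.11 CPM in siNC at 48 h (log2 change -0.67, edgeR adjusted p = 1.7e-69). FLG, which encodes filaggrin, had a log2 change of 0.11 (adjusted p = 0.0093), a call lost with library size alone (adjusted p = 0.093) and with DESeq2 (adjusted p = 0.085). HRNR, which encodes hornerin, had a log2 change of -0.59 (adjusted p = 0.055), which passed with library size alone (adjusted p = 0.040). At 24 h 17 of the 28 averaged under 0.1 CPM.

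Suprabasal keratins were few. Of 9, only KRT80 and KRT10 were tested. KRT80, a keratin of differentiating epithelia, was lower at both times, at 86.0 ± 3.06 CPM in siANLN against 133 ± 1.68 CPM in siNC at 24 h and 75.1 ± 1.90 CPM in siANLN against 148 ± 4.90 CPM in siNC at 48 h (log2 changes -0.63 and -0.98, edgeR adjusted p = 1.9e-19 and 6.6e-77). KRT10 had log2 changes of -0.07 at 24 h and 0.01 at 48 h (adjusted p = 0.69 and 0.94), the second of which was -0.03 with library size alone.

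Of 13 other kallikreins and their inhibitors, 2 were tested at 24 h, with 0 called. At 48 h 3 were tested, with 0 higher and 2 lower, which were KLK9 and KLK6. SPINK5, which encodes the kallikrein inhibitor LEKTI, had a log2 change of -0.59 at 48 h (edgeR adjusted p = 0.13). Of 16 other S100 genes, 9 were tested at 24 h, with 0 higher and 2 lower (median -0.08). At 48 h 10 were tested, with 2 higher and 4 lower (median -0.22). S100A10 had a log2 change of -0.41, S100A2 one of -0.42 and S100A11 one of 0.18 at 48 h, and all passed the test. Of 7 other aquaporins, AQP11 was tested at both times and AQP1 at 48 h, and 0 were called by edgeR, with log2 changes at 48 h of 0.25 (adjusted p = 0.34) and -0.38 (adjusted p = 0.46).

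Of 15 genes of barrier lipids and late processing, 7 were tested at each time. At 24 h 0 were called by edgeR (median -0.15), and at 48 h 1 was higher and 2 lower (median 0.07). CASP14, a caspase of terminally differentiating keratinocytes, stood at 2.87 ± 0.291 CPM in siANLN against 0.773 ± 0.123 CPM in siNC at 48 h (log2 change 1.88, SE 0.30, adjusted p = 9.9e-09). PRSS8 and ST14, which encode membrane-linked serine proteases of the epithelial barrier (prostasin and matriptase), fell by 0.60 and 0.16 on the log2 scale.

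Of 23 regulators of squamous differentiation, 17 were tested at 24 h, with 0 higher and 2 lower (median -0.08). At 48 h 18 were tested, with 4 higher and 9 lower (median -0.27). NOTCH3, a Notch receptor, stood at 13.3 ± 0.633 CPM in siANLN against 54.9 ± 1.34 CPM in siNC at 48 h (log2 change -2.05, SE 0.07, edgeR adjusted p = 1.7e-91). NOTCH1 fell by 0.75 and TP63, which encodes the squamous lineage factor p63, by 0.43. Chosen after their values were seen, the transcription factors ZNF750, GRHL3 and EHF had log2 changes of -1.81, -1.58 and 0.93 at 48 h, and all passed the test.

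**Figure D4:**
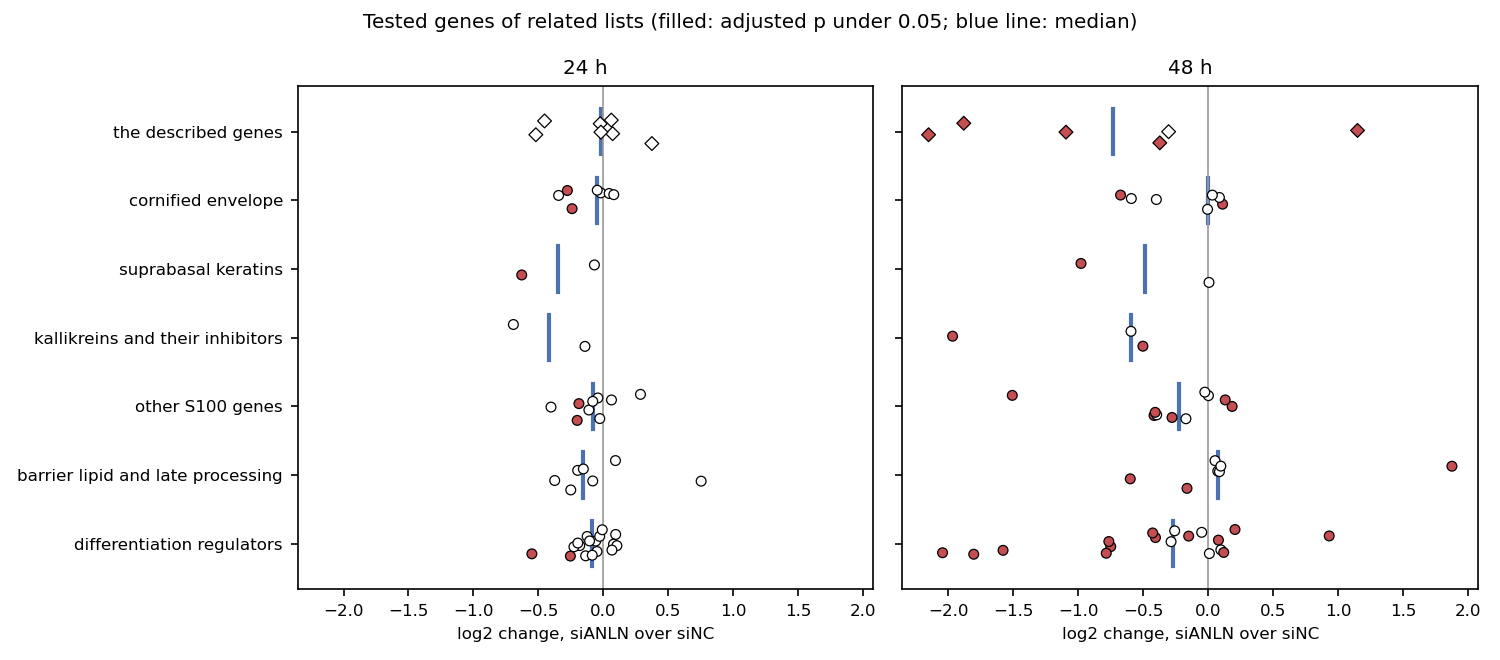
Log2 change (siANLN over siNC) of each tested gene in the described set and in 6 related lists at 24 h and 48 h, with filled points for an edgeR adjusted p under 0.05 and the list median as a blue line. At 48 h the described genes have a median of -0.73. Among the lists it is -0.59 for other kallikreins and inhibitors (3 tested), -0.49 for suprabasal keratins (2 tested) and -0.27 for differentiation regulators. It is -0.22 for other S100 genes, 0.00 for other cornified envelope genes and 0.07 for genes of barrier lipids and late processing.

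Markers of the squamous lineage itself moved with the groups. All 8 (KRT5, KRT14, TP63, KRT6A, DSG3, SFN, TRIM29 and PKP1) were expressed, and their summed level ran from 3257 to 3361 CPM in siANLN against 4053 to 4328 CPM in siNC at 24 h. At 48 h it ran from 2713 to 2782 CPM in siANLN against 5236 to 5435 CPM in siNC. At 24 h 6 of the 8 were lower by edgeR, against 4.86% of all genes tested, and at 48 h 8 of 8, against 21.3%. KRT5, KRT14 and KRT6A, keratins of basal or activated squamous cells, had log2 changes of -1.28, -1.16 and -1.32 at 48 h. The part of this shift in the results for the differentiation genes was not tested.

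Apart from COL1A1, markers of fibroblasts and endothelium were low, with VWF the highest at up to 1.96 CPM in a library at 48 h. Of 9, COL1A2 had no read in any library at either time, and PDGFRB none at 48 h. The summed level of the list ran from 10.03 to 12.4 CPM in siANLN against 20.01 to 22.1 CPM in siNC at 48 h, mostly COL1A1, at 10.3 ± 1.19 CPM in siANLN and 19.2 ± 0.697 CPM in siNC. COL1A1 and VWF, the 2 tested at 48 h, fell by 0.90 and 1.43 on the log2 scale (edgeR adjusted p = 1.2e-16 and 7.3e-04). At 24 h the sums overlapped, from 5.79 to 6.30 CPM in siANLN and from 5.96 to 8.10 CPM in siNC. The part of these markers in the results above was not tested.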

How the data were processed

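Per the labels' protocols, poly(A) libraries of KYSE150 total RNA were read in pairs on an Illumina HiSeq Xten. The submitters' processing notes list cutadapt 1.18, STAR 2.7.3a, featureCounts, DESeq2 1.44.0 and the build GRCh38. The authors deposited raw read counts and FPKM values (fragments scaled by gene length and library total), with separate tables for 24 h and 48 h. In the 48 h table, 38561 lines held 38318 gene IDs, and repeated IDs, identical in value, were kept once. Gene names and positions are those of GENCODE release 29. Strand settings were not stated in the sources used here.

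The deposited counts were tested with edgeR 4.0.16 in R 4.3.3: TMM factors, filterByExpr, a robust quasi-likelihood F test, two-sided, Benjamini-Hochberg adjusted over all genes tested, called under 0.05. Each time was fitted on its 6 libraries with no covariate. The common biological coefficient of variation was 0.039 at 24 h and 0.020 at 48 h. Intervals are 95% intervals of the log2 change. Alternatives were other size factors, DESeq2 1.42.0, other filters, a replicate block, limma 3.58.1 on log2 FPKM, and leaving out each library. The scripts were tested on simulated data. The genes and lists were chosen with earlier results of these data known, so no p-value is given over a list. The genes named are ANLN, the 10 described genes and, from each list, the 3 with the smallest p at 48 h, unless said otherwise.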

Additional observations from a re-analysis of the deposited data

Results flagged for a closer look

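Each result here had a change that differed between the times. The measure was the difference of the log2 changes, 48 h minus 24 h, with an edgeR adjusted p under 0.05. Over all 17625 genes tested, 13.0% passed. Among the described genes, those that passed were KLK5 (-0.33), KLK10 (-1.14), AQP3 (-1.42) and MAB21L4 (-1.62), each with a lower change at 48 h. Of the genes named from the related lists, PPL (-0.42), KRT80 (-0.34), S100A10 (-0.19), S100A2 (-0.22), NOTCH3 (-1.48), TP63 (-0.39) and NOTCH1 (-0.55) had lower changes at 48 h, and CASP14 (2.14) had a higher one. Among the cell type markers named, KRT5 (-0.85), KRT14 (-0.80), KRT6A (-0.90) and COL1A1 (-0.64) also passed with lower changes at 48 h. VWF (-0.98, adjusted p = 0.45) did not pass. The tables of the 2 times were made separately, so time and table cannot be told apart.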

How the results depend on the processing

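The number of described genes called was 0 at 24 h, 5 at 48 h and 4 for the difference between the times under every alternative run. DESeq2 gave an adjusted p for 3 of the 7 genes at 24 h, which limits the 24 h count. By edgeR with TMM factors, 10.8% of all genes tested were called at 24 h, 43.6% at 48 h and 13.0% for the difference. Of 302 values of single genes under alternatives, 295 kept their direction. Of these, 289 also kept their side of the threshold, and 6 had no adjusted p from DESeq2. The other 7 were uncalled 24 h changes near 0 that turned sign when a library was left out. SPRR1B (0.07) moved to -0.10 without siNC replicate 3, -0.11 without siANLN replicate 2 and -0.04 without siANLN replicate 3, in a range from -0.11 to 0.32. KLK5 (-0.02) moved to 0.0045 without siNC replicate 3 and 0.017 without siANLN replicate 2, in a range from -0.058 to 0.017. TGM1 (-0.02) moved to 0.057 without siANLN replicate 3 and 0.061 without siNC replicate 2, in a range from -0.086 to 0.061. At 48 h the log2 changes of AQP3 and MAB21L4 ranged from -2.16 to -1.17 and from -2.38 to -1.35, the smallest sizes with limma on log2(FPKM + 1), whose pseudocount understates changes of low genes. The 24 h adjusted p of MAB21L4 ranged from 0.059 to 0.33.

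Over all genes, 1585 were called at 24 h, against 772 and 778 with limma on log2(FPKM + 1) and log2(FPKM + 0.1). Leaving out a library gave 1285 to 1421 at 24 h and 6631 to 6809 at 48 h. At 48 h library size alone called 3138 higher and 4265 lower, or 42.4% higher, against 51.0% higher with TMM. Same-numbered libraries did not deviate together (correlations from -0.02 to 0.03), which gave no sign of pairing by number. These correlations run over all genes tested and include counting error, so they cannot exclude pairing. With the replicate block 1772 genes were called at 24 h and 7355 at 48 h, and the described genes called were 0, 5 and 4. Depth limits IVL, S100A8, SPRR1A, SPRR1B and, at 24 h, S100A9, each with under 40 reads per library. Called genes were also under 40 reads in 1 group at 48 h. These were MAB21L4 (15 to 33 reads) and AQP3 (24 to 39) in siANLN, and S100A9 (19 to 21) in siNC.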
